A study of Mus musculus with 133 samples.

Results

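Hepatocytes of young male mice (YM, 11-14 weeks old) were compared 44 h after partial hepatectomy (PH) and in normal liver (NL), gene by gene. The comparison took the 3 libraries labelled YM at 44 h after PH against the 3 NL libraries of YM numbered 1, 2 and 3 in mix 7. A mix is a numbered tag in the sample titles, which do not say what it stands for. It used 6 of the 133 samples of the series, and 6 further NL libraries of YM served as a check. Of the 11049 genes in the table, 61 had in at least 1 of the 6 libraries a value above the most transcripts that the tags of the assay can be converted to, and were dropped before scaling. The highest value kept was 33945 counts and the lowest peak value of a dropped gene 35499. The remaining 10988 genes are the members, and 10947 of them were tested, having at least 0.5 CPM in 1 library or more. CPM are counts divided by the scaled size of their library.

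All mice were wild-type C57BL/6. PH removes the left and median lobes and leaves the right and caudate lobes to regrow, while NL mice had no operation, and the operated and unoperated mice carried no other treatment. The cells were hepatocytes released from the liver by collagenase in 2 steps and not sorted further, so cells of other liver types can be carried along. RNA was read by 3′UTR-seq (CEL-seq2), which counts molecules by a tag at the 3′ end of each transcript. The sources used here name 3 mice at each analysis point, and p-values measure the spread between these libraries.

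Hepatocytes of an adult liver rarely divide. After PH they leave the resting state together, copy their DNA and pass through mitosis, while the remaining lobes go on supplying plasma proteins, bile acids, glucose and urea to the body. Progression into DNA synthesis is driven by cyclins and cyclin-dependent kinases, which release E2F transcription factors. Genes of mitosis are switched on later by the MuvB complex with B-Myb and FoxM1, which binds the CHR element in their promoters. The 44 h libraries were compared with NL to describe which of these programmes and which liver functions differed at that hour.

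The libraries did not all stand alike. Without the 61 dropped genes the NL libraries held 1672930 to 3191002 counts and the 44 h libraries 2610583 to 3494479. The dropped genes took 92.2 to 93.7% of all counts at 44 h and at most 0.108% in any NL library. Every dropped gene had 0 counts in NL 4, the NL library of mix 26. NL 4 and NL 5 (mix 27) differed from each other by less than the sampling noise and were counted as 1 sample, and each lay nearer to the mean of the other NL libraries than counting error allows, with an SD of log2 ratios of 0.047 and 0.029 against 0.225 to 0.335 for the other 7 NL libraries. Values that rest on NL 4 or NL 5 are therefore named as such. The 3 NL libraries of mix 1 held 75 to 102 counts of Xist, the RNA of the silenced X chromosome, beside 270 to 316 counts of the Y-linked Ddx3y, whereas NL of mix 7 held 0 counts of Xist and the 44 h libraries 16, 7 and 0. Comparing the other NL libraries with NL of mix 7 gave 0 calls by edgeR's quasi-likelihood test, with 62 genes (0.566%) at an unadjusted p under 0.05 and 1 call by DESeq2. The other NL libraries included NL 4 and 5, without which edgeR also gave 0 calls. The authors had already corrected the counts for batch, so this check cannot show how far mixes differed before that correction.

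Between 44 h and NL, 1009 of the 10947 tested genes (9.22%) were higher and 793 (7.24%) lower at 44 h. A gene was called where its adjusted p was below 0.1 and its levels differed 2-fold or more. Adjusted p-values are from edgeR's quasi-likelihood test with Benjamini-Hochberg adjustment over all tested genes, and fold changes are on the log2 scale with their standard error (SE). Every 44 h library lay above every NL library, the 6 further ones included, in 1602 genes (14.6%), and below every one in 1214 genes (11.1%). The median log2 fold change over all tested genes was -0.02. The 44 h libraries came from mixes 24 and 26 and the NL libraries from mix 7, so that within the 6 libraries group and mix cannot be told apart, beyond the correction the authors applied to the counts.

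**Figure D1:**
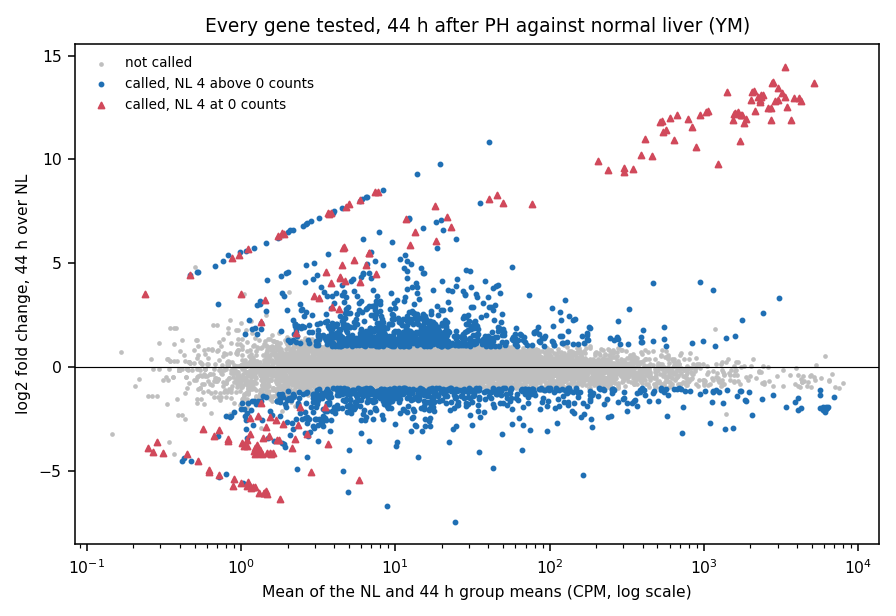
Log2 fold change of 44 h over NL (vertical axis) against the mean of both group means in CPM (horizontal axis, log scale) for every gene tested. Grey points were not called, blue points were called and had counts in NL 4, and red triangles were called and had 0 counts in NL 4, which holds for 53 of the 54 genes above a log2 fold change of 10, the group at the upper right.

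The 10 genes with the highest fold changes by the naming rule were Slfn9, Cgref1, Selenon, Capg, Des, Scarna17, Samd10, Bank1, Spsb1 and Kdm4c, and none of them had a count in NL 4. Slfn9 had 0, 0.7397 and 0 CPM in NL and 6975, 3892 and 9166 CPM at 44 h. Its median 52 h after PH was 0.662 CPM, and 1 month after PH it was high again, at 1271 to 1457 CPM. The other 9 genes had at most 1.48 CPM in NL of mix 7, at most 3.97 CPM at 52 h and 1899.96 to 7977 CPM at 44 h. At 1 month Cgref1 reached 764 CPM in 1 library, and the remaining 8 genes had at most 1.77 CPM. Genes with 0 counts in NL 4 made up 233 (2.13%) of the tested genes, 108 (10.7%) of those higher and 65 (8.20%) of those lower. Among the 10714 tested genes with counts in NL 4, 901 (8.41%) were higher and 728 (6.79%) lower. The genes at 0 in NL 4 took 19.8 to 24.7% of the tested counts at 44 h. The dropped genes shared both features, a 0 in NL 4 and high counts confined among these 6 libraries to 44 h, and the part of batch correction in these values was not tested. Without the genes at 0 in NL 4, a choice made after seeing the data, 939 genes were higher and 708 lower, and the groups below are given with that feature in view.

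Short stretches of promoter are shown for genes of mitosis, DNA replication and the clock, as examples of the motifs counted over these lists. All are of called genes but Plk1, which holds the mitosis motif and was not called. They are taken from RefSeq (GRCm38.p6), each of 30 bases written 5′ to 3′ along the gene's strand, with the motif in capitals. The search ran over 250 bases before to 50 bases after the start site, on both strands, in the 7840 of 10947 tested genes with a promoter in that table.

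Cdk1, CHR, chr10:69352910-69352939 (minus strand): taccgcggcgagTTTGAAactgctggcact
Cdc20, CHR, chr4:118437344-118437373 (minus strand): agacagttgggtTTTGAAggagccaatgaa
Ube2c, CHR, chr2:164769888-164769917 (plus strand): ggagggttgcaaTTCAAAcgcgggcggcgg
Plk1, CHR, chr7:122159453-122159482 (plus strand): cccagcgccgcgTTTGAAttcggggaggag
Mcm5, E2F, chr8:75109349-75109378 (plus strand): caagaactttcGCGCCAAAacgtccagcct
Bhlhe41, E-box, chr6:145865556-145865585 (minus strand): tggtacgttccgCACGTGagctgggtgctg
Ciart, E-box, chr3:95882255-95882284 (minus strand): cgtgcagaaccgCACGTGtctgggaggggg
Tef, E-box, chr15:81802534-81802563 (plus strand): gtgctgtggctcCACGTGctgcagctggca
Per3, D-box, chr4:151044805-151044834 (minus strand): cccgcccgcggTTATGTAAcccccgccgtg

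The CHR letters (TTTGAA or TTCGAA) were present in 33 of the 44 promoters (75%) of mitosis genes called higher, against 14.4% of all 7840 promoters. CCAAT, the binding site of NF-Y, which is often paired with the CHR, was present in 32 of the 44 (72.7%) against 39.2%. The E2F letters (TTTGGCGC or TTTCCCGC) were present in 6 of 26 promoters (23.1%) of DNA replication genes called higher, against 3.15%. These are matches of letters and not sites shown to be bound, and CHR and CCAAT do not overlap in their letters.

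DNA replication genes were higher as a group at 44 h. Of 48 genes listed, 40 were tested, 32 were higher and 1 was lower, and the median log2 fold change of the 40 was 2.04. The MCM genes encode the ring-shaped helicase that opens DNA at origins, and Mcm5 had 1.497, 3.33 and 2.13 CPM in NL and 13.1, 21.3 and 27.3 CPM at 44 h, a log2 fold change of 3.18 (SE 0.40, adjusted p = 0.000498). All 3 values at 44 h lay above all NL values, and the promoter stretch printed for Mcm5 holds an E2F motif. Mcm2, Mcm3, Mcm6 and Mcm7 were also higher, with log2 fold changes of 3.18, 1.68, 2.58 and 1.70.

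The sliding clamp that tethers the polymerase, Pcna, rose from 42.4, 43.3 and 18.5 CPM to 74.9, 146 and 182 CPM (log2 fold change 1.91, SE 0.35, adjusted p = 0.00447). Gins1, a subunit of the active helicase, rose from 32.4, 34.03 and 32.7 CPM to 48.3, 113 and 129 CPM. Both genes were lowest in 44 h replicate 1 and had no overlap with NL. Among genes that supply nucleotides, Rrm2, a subunit of ribonucleotide reductase, rose from 6.73, 7.03 and 2.13 CPM to 35.2, 87.2 and 119.5 CPM, and Tyms and Tk1 had log2 fold changes of 2.88 and 1.57. Lig1, which joins Okazaki fragments, rose from 4.74, 4.44 and 7.82 CPM to 34.4, 72.6 and 76.5 CPM. Uhrf1, which brings the DNA methylase Dnmt1 to new DNA, had 0 counts in every NL library of mix 7 and 4.87, 6.71 and 10.5 CPM at 44 h, at least 20.8-fold higher when the NL group is set at a floor of 3 counts over its 3 libraries. Gins2 was likewise at 0 in NL and reached 4.49, 14.6 and 11.04 CPM, at least 27.3-fold higher, and it and Uhrf1 are the list's members with 0 counts in NL 4.

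Mcm10, which loads polymerase at origins, ran against the list. It fell from 95.04, 80.3 and 100.2 CPM in NL to 22.1, 15.8 and 28.7 CPM at 44 h (log2 fold change -2.03, SE 0.23, adjusted p = 0.000281), with all 3 libraries below every NL library. Its median was 25.2 CPM at 52 h and 31.3 CPM 4 days after PH, both below NL as well.

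Mitosis genes made up the list with the highest median. Of the 58 tested, 51 were higher and 0 lower by edgeR (50 and 0 by DESeq2), with a median log2 fold change of 4.53, and 43 of the 51 had counts in NL 4. At an unadjusted p under 0.05, 52 lay higher and 1 lower. Cdc20, which activates the anaphase-promoting complex, had 0.249, 0.3699 and 2.13 CPM in NL and 18.7, 81.7 and 45.3 CPM at 44 h (log2 fold change 6.17, SE 0.74, adjusted p = 0.000386). Spc25, part of the kinetochore complex that holds microtubules, rose from 10.7, 8.88 and 17.8 CPM to 49.4, 195 and 157 CPM. Top2a, which untangles chromosomes, rose from 4.99, 5.92 and 6.397 CPM to 32.6, 122 and 97.2 CPM, and its 52 h median of 293 CPM was higher still. Mki67, the proliferation marker that coats mitotic chromosomes, rose from 0.249, 1.48 and 1.42 CPM to 9.73, 30.8 and 27.9 CPM (log2 fold change 4.63, SE 0.62, adjusted p = 0.000676), with a 52 h median of 90.1 CPM. For all 4 genes the 44 h and NL libraries did not overlap and 44 h replicate 1 was the lowest of its group.

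Several mitosis genes were absent from NL of mix 7. Ube2c, the ubiquitin-conjugating enzyme of the anaphase-promoting complex, had 0 counts there and 8.23, 26.8 and 14.6 CPM at 44 h, at least 43.8-fold higher. The kinesin motors Kif14, Kif20b and Kif23 were at 0 in the same NL libraries and at least 34.6-, 29.4- and 23.3-fold higher at 44 h. Kif4, a kinesin of the central spindle, had 0.499, 0 and 0 CPM in NL and 16.1, 70.2 and 22.6 CPM at 44 h, a ratio of 139 with a 95% counting interval of 38.2 to 1156 that covers counting error only. Outside the list, the acetyltransferase Esco2, which locks sister chromatids together, and Lockd, a noncoding RNA, were at 0 in NL and reached 11.98, 16.2 and 11.3 CPM and 16.8, 38.7 and 27.9 CPM.

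The other 7 mitosis genes were not called, and 5 of them had next to no counts at 44 h. The part of batch correction in these low values was not tested. Plk1, the kinase that drives mitotic entry, had 1 count in each NL library of mix 7 and 1 count in each 44 h library, while its 52 h median was 1122 CPM. Its promoter stretch is the one with a CHR after the start site. Kif20a and Prc1, which build the central spindle, had 0.374, 0.395 and 0.276 CPM each at 44 h against 52 h medians of 93.7 and 365 CPM. Aurka, the spindle pole kinase, had 0.374, 0.789 and 0.276 CPM at 44 h and 93.4 CPM at 52 h, and Anln, which shapes the cleavage furrow, 0.374, 0.395 and 0.276 and 86.7 CPM. Bub1b, a checkpoint kinase, had a log2 fold change of 2.24 (SE 0.94, adjusted p = 0.12). Pttg1, the inhibitor of separase, lay below NL in every 44 h library, at 86.8, 106 and 101 CPM against 154, 171 and 136 CPM, with an adjusted p of 0.0231 but less than a 2-fold difference.

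**Figure D2:**
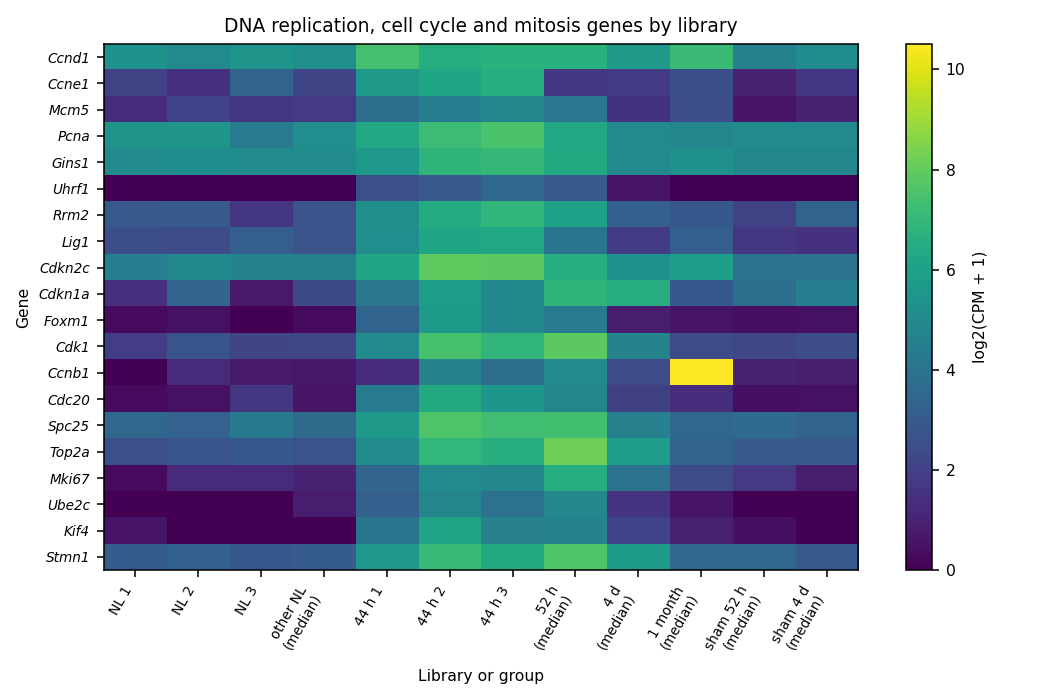
Levels of 20 cell cycle genes as log2(CPM + 1) (colour), with genes in rows and NL, 44 h and later groups in columns, single libraries for NL of mix 7 and 44 h and the median for each other group. Of the 44 h libraries, replicate 1 has the lowest levels of most genes, as with Cdk1 at 32.2 CPM against 174 and 121 CPM. Ccnb1 is brightest at 1 month, with 0, 1459 and 2349 CPM in the 3 libraries, and the part of batch correction in these values was not tested.

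Of 33 cyclins, kinases and regulators tested, 20 were higher and 0 lower by edgeR and by DESeq2, with a median log2 fold change of 1.61. At an unadjusted p under 0.05, 23 lay higher and 2 lower. Cdk1, the kinase of mitotic entry (chromosome 10, 69335146 to 69352938, minus strand, GRCm38), had 2.74, 5.55 and 3.55 CPM in NL and 32.2, 174 and 121 CPM at 44 h (log2 fold change 4.80, SE 0.60, adjusted p = 0.000487). Its partner cyclin Ccnb1 had 0, 1.48 and 0.711 CPM and 1.497, 24.9 and 12.97 CPM, so that replicate 1 stood barely above NL 2, and in a model of all 15 listed YM libraries its adjusted p was 0.102. Ccna2, the S phase cyclin, was not called, at 0.249, 0.3699 and 0.711 CPM in NL and 0.374, 1.58 and 1.66 CPM at 44 h (adjusted p = 0.167), and its 52 h median was 20.8 CPM. Both cyclins were high in 1 month libraries, with medians of 1459 CPM for Ccnb1 and 1064 CPM for Ccna2 and a lowest library at 0. The part of batch correction in these 1 month values was not tested.

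The G1 cyclins Ccne1 and Ccnd1 were higher as well. Ccne1 rose from 3.24, 1.85 and 9.24 CPM to 49.8, 72.2 and 91.4 CPM at 44 h, while its 52 h median of 2.22 CPM lay within the NL range. Ccnd1, cyclin D1, rose from 39.9, 30.3 and 42.6 CPM to 168, 89.6 and 104 CPM (log2 fold change 1.69, SE 0.26, adjusted p = 0.00143), with 44 h replicate 1 the highest of its group, and its 52 h median of 103 CPM was also above NL. Foxm1, a transcription factor of mitosis genes, rose from 0.249, 0.3699 and 0 CPM to 9.36, 51.3 and 29.3 CPM. Inhibitors rose beside the activators. Cdkn2c, which blocks the partners of cyclin D, rose from 22.4, 29.2 and 24.9 CPM to 70.7, 243 and 232 CPM, and Cdkn1a, the p21 inhibitor, from 1.75, 9.62 and 0.711 CPM to 16.8, 53.7 and 29.3 CPM with a 52 h median of 112 CPM.

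The 3 libraries at 44 h were not alike in the cell cycle. Among 30 DNA replication genes called higher with counts in NL 4, 29 were lowest in replicate 1, and their summed level was 585, 1150 and 1383 CPM against 224 to 241 CPM in NL. Among 43 mitosis genes, 39 were lowest in replicate 1, with sums of 550, 1902 and 1283 CPM against 110 to 149 CPM in NL. Replicate 1 was above NL in both sums, and below the 52 h libraries, which ranged from 638 to 818 CPM for DNA replication and from 1371 to 1701 CPM for mitosis. For DNA replication replicates 2 and 3 were above the 52 h range, and for mitosis replicate 2 was above it and replicate 3 below it. These genes were chosen as higher at 44 h, so sums above NL follow from the choice. The comparison with 52 h leans towards 44 h for the same reason. It leaves out uncalled mitosis genes such as Plk1 and Prc1, whose 52 h levels are given above. Over all 58 tested mitosis genes the sums were 266 to 296 CPM in NL and 722 to 2221 CPM at 44 h. Over all 40 tested DNA replication genes they were 483 to 522 and 828 to 1730 CPM. At 1 month the 43 mitosis genes summed to 4446 to 12617 CPM, more than in any 44 h library, of which Ncaph and Tpx2 made up nearly all, both named after their values were seen. Ncaph, a condensin subunit, had 4346, 3255 and 0 CPM in the 3 libraries at 1 month, and Tpx2, a spindle assembly factor, 0, 9215 and 8554 CPM. The remaining members summed to 100.2 to 177 CPM there, against 110 to 149 CPM for all 43 genes in NL. The limit on counts was applied to the 6 libraries compared only. The part of batch correction in the 1 month values was not tested. The 30 DNA replication genes summed to 254 to 331 CPM at 1 month. Replicates 1 and 2 came from the same mix.

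**Figure D3:**
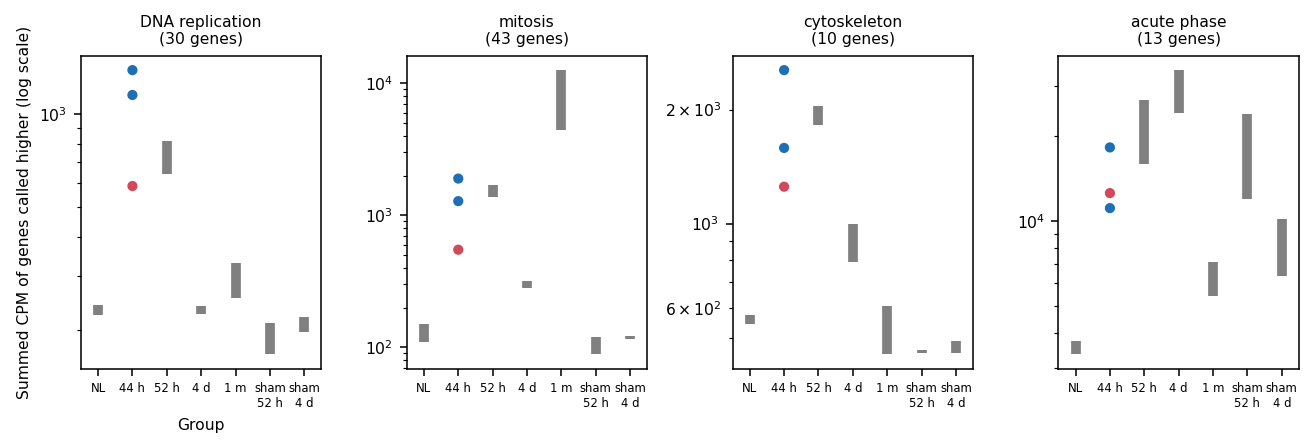
Summed CPM of the genes called higher in each of 4 lists, with counts in NL 4, by group: points are the 44 h libraries (replicate 1 in red) and bars span the lowest to the highest library of the other groups. The vertical axes are on a log scale and 1 m is 1 month after PH. The genes were chosen as higher at 44 h, so the sums lean towards that group. 44 h replicate 1 lies below the 52 h range in DNA replication and mitosis, replicate 3 does so in mitosis, and in acute-phase genes the sham libraries at 52 h reach 11910 to 23953 CPM. The 1 month bar for mitosis (4446 to 12617 CPM) is the highest of its panel, and nearly all of it is Ncaph and Tpx2.

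DNA repair genes numbered 23 tested, with 6 higher (26.1%, against 9.22% of all tested genes) and a median of 0.33. H2afx, the histone variant that is phosphorylated at breaks, rose from 2.74, 3.699 and 0.711 CPM to 16.8, 31.2 and 30.1 CPM. Of 19 p53 targets, 4 were higher (21.1%, against 9.22% of all tested genes) and 1 lower (5.26%, against 7.24%). Mdm2, which marks p53 for breakdown, rose from 25.9, 24.8 and 30.6 CPM to 44.5, 62.7 and 61.8 CPM, close to the 2-fold minimum, and without 44 h replicate 2 or 3 its log2 fold change was 0.99 or 1.00 and it was not called. Ckap2 and Phlda3 were also higher with 0 counts in NL 4, and Ckap2 is a mitosis gene as well. The proapoptotic Bbc3 fell from 4.49, 3.699 and 2.84 CPM to 0.749, 0.789 and 1.38 CPM.

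Genes of ribosome production differed by less. Of 50 ribosome biogenesis genes, 8 were higher, and 40 had a positive fold change with a median of 0.45. Nop58, a core protein of the particles that methylate ribosomal RNA, rose from 15.7, 17.4 and 9.95 CPM to 66.6, 47.4 and 47.5 CPM, and Gar1, of the pseudouridine particles, from 2.99, 3.699 and 1.42 CPM to 8.98, 12.2 and 11.6 CPM. Of 87 ribosomal protein genes, 72 had a positive fold change and 3 were called, with a median of 0.24, and ribosomal protein genes have many near-identical copies to which reads can be split. Proteasome genes had 2 higher (4.88%) and 1 lower (2.44%) of 41, below the shares of all tested genes (9.22% and 7.24%). The nuclear-encoded respiratory chain had 0 called of 83 by edgeR and DESeq2, with a median of -0.14. Of the 83, 4 lay higher and 7 lower at an unadjusted p under 0.05.

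Of 31 cytoskeleton and calcium-binding genes, 10 were higher (32.3%, against 9.22% of all tested genes), and 29 had a positive fold change with a median of 0.62. Tubb5 and Tubb6 encode tubulins, the building blocks of the spindle. Tubb5 rose from 184, 154 and 198 CPM to 333, 917 and 626 CPM (log2 fold change 1.81, SE 0.33, adjusted p = 0.00423), and Tubb6 from 3.99, 4.81 and 2.84 CPM to 20.2, 93.9 and 60.4 CPM. Stmn1, which takes microtubules apart, rose from 7.23, 8.51 and 6.397 CPM to 47.5, 133 and 82.8 CPM. Krt8, a keratin of hepatocytes, rose from 192, 245 and 267 CPM to 469.7, 792 and 367 CPM, and like the tubulins and Stmn1 it was highest in replicate 2, without which its log2 fold change was 0.84 and it was not called.

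Of 28 immediate-early genes, 5 were higher (17.9%, against 9.22% of all tested genes) and 3 lower (10.7%, against 7.24%), with a median of -0.23. Cebpb rose from 191, 188 and 164 CPM to 274, 536 and 361 CPM and Klf6 from 3.99, 4.81 and 5.69 CPM to 10.9, 51.7 and 15.7 CPM, whereas the phosphatase Dusp1, which switches off MAP kinases, fell from 67.1, 44.4 and 56.2 CPM to 11.6, 11.05 and 15.2 CPM. Without 44 h replicate 2 the log2 fold change of Cebpb was 0.81, under the 2-fold minimum. All 5 genes higher were lowest in replicate 1, as the cell cycle genes were.

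Of 36 growth factor and cytokine genes, 3 were higher and 3 lower (8.33% each way), close to the shares of all tested genes (9.22% and 7.24%). Igfbp1, a secreted binding protein of insulin-like growth factors, rose from 37.9, 45.9 and 65.4 CPM to 90.6, 476 and 164 CPM. Tnfrsf12a, the receptor of TWEAK, rose from 1.996, 1.48 and 1.42 CPM to 41.2, 25.6 and 10.8 CPM. Igf2, a fetal growth factor, had 0 counts in NL of mix 7 and 50.9, 45.4 and 20.98 CPM at 44 h, at least 100.2-fold higher, but NL 4 held 11.1 CPM. H19, the noncoding RNA next to Igf2, had 0, 0.3699 and 0.711 CPM in NL of mix 7 and 81.96, 65.1 and 63.5 CPM at 44 h, while NL 4 held 144 CPM, more than any 44 h library. With the other NL libraries in place of mix 7, Igf2 stayed called (log2 fold change 4.47) and H19 did not (log2 fold change 2.02, adjusted p = 0.14). Both genes had a median of 0 CPM at 52 h and were high again in 1 month libraries, up to 101 CPM for Igf2 and 191 CPM for H19. Against NL 4 alone, 44 h replicate 3 of the same mix differed by 0.73 for Igf2 and by -1.14 for H19 as log2(CPM + 4). Igf2 and H19 belong to a list of fetal and biliary genes, of which 9 were tested and 5 were higher (Igf2, H19, Dlk1, Prom1 and Lcn2), with a median of 3.23. With the other NL libraries in place of mix 7 the list had 3 higher and a median of 2.02. Sox9, a transcription factor of bile duct cells, was not called (log2 fold change 0.78, SE 0.47, adjusted p = 0.274).

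Inhbb, a subunit of activin B, was higher, with 1.75, 1.48 and 0.711 CPM in NL and 1.87, 31.2 and 8.004 CPM at 44 h, where replicate 1 overlapped the other NL libraries. Its call was lost without NL replicate 1 (adjusted p = 0.114) or NL replicate 2 (adjusted p = 0.109). Id1, a target of BMP signals, rose from 8.48, 4.07 and 7.11 CPM to 15.3, 20.5 and 16.3 CPM. Inhbb and Id1 were the 2 higher of 27 TGF-beta and activin genes (7.41%), against 1 lower (3.70%). These shares were below those of all tested genes (9.22% and 7.24%). Of 28 Wnt and Hippo genes, 3 were lower (10.7%, against 7.24% of all tested genes) and 0 higher by edgeR. DESeq2 gave 2 and 0, and 8 lay lower and 0 higher at an unadjusted p under 0.05. Fzd8, a Wnt receptor, fell from 21.5, 17.8 and 31.98 CPM to 2.62, 1.58 and 5.24 CPM, and Tcf7l2, which carries the Wnt signal to the genome, from 59.6, 58.4 and 73.2 CPM to 31.1, 20.5 and 27.6 CPM.

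**Figure D4:**
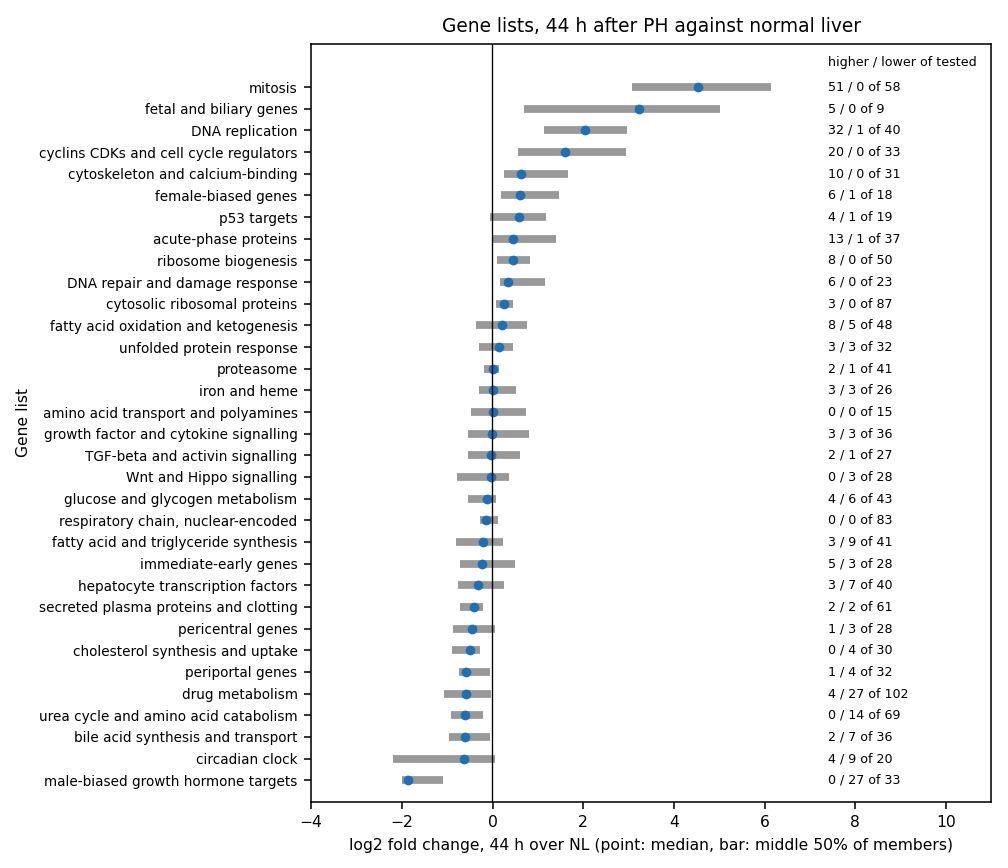
Median log2 fold change of 44 h over NL (point) and the middle 50% of members (bar) for 33 gene lists, with the numbers of genes called higher and lower of those tested at the right. The vertical line is the median of all tested genes, and the lists run from mitosis at 4.53 to male-biased growth hormone targets at -1.86.

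Acute-phase genes, which the liver turns on in inflammation, were partly higher. Of 37 tested, 13 were higher (35.1%, against 9.22% of all tested genes) and 1 lower (2.70%, against 7.24%), with a median of 0.46. The metallothionein Mt1, which binds zinc and copper, rose from 511, 449.7 and 699 CPM to 5258, 7587 and 3815 CPM (log2 fold change 3.33, SE 0.36, adjusted p = 0.000191), and Mt2 from 43.9, 27.7 and 90.3 CPM to 573, 1509 and 572 CPM. Lcn2, which binds bacterial iron carriers, rose from 32.4, 18.1 and 20.6 CPM to 209, 339 and 135 CPM, and Saa2, serum amyloid A, from 56.1, 43.6 and 43.4 CPM to 250.004, 262 and 190.4 CPM. The levels after sham surgery bear on this list, and a sham group at 44 h was not analysed here. The sham libraries at 52 h had medians of 552 CPM for Lcn2 and 2791 CPM for Saa2, both above the highest 44 h library, and 2000.2 CPM for Mt1, which was below all of them. Hamp2, a hepcidin gene, fell from 219.8, 143 and 153 CPM to 69.99, 30.8 and 32.6 CPM, and its sham median was 82.5 CPM.

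Of 26 genes of iron and heme, 3 were higher and 3 lower (11.5% each way, against 9.22% and 7.24% of all tested genes). Hmox1, which breaks down heme, rose from 11.7, 7.77 and 26.3 CPM to 93.9, 109 and 44.7 CPM. Alas1, the first enzyme of heme synthesis, rose from 63.4, 52.5 and 68.9 CPM to 196, 84.1 and 153 CPM, with a log2 fold change of 0.96 and no call without 44 h replicate 1. Tmprss6, a protease that restrains hepcidin, fell from 70.8, 74.7 and 49.04 CPM to 29.2, 18.2 and 33.1 CPM.

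The unfolded protein response had 3 higher and 3 lower of 32 (9.38% each way), close to the shares of all tested genes (9.22% and 7.24%). Dnajb9, a chaperone of the endoplasmic reticulum, rose from 21.95, 9.99 and 7.11 CPM to 73.7, 51.7 and 39.5 CPM, and Psat1, which makes serine, from 5.99, 8.88 and 1.42 CPM to 55.02, 87.2 and 44.99 CPM. Trib3, a pseudokinase induced by stress, fell from 4.74, 7.03 and 12.1 CPM to 1.497, 2.76 and 0.828 CPM. Of 15 genes for amino acid transport and polyamines, 0 were called by edgeR or DESeq2, with 4 higher and 3 lower at an unadjusted p under 0.05.

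Secreted plasma proteins stayed mostly uncalled. Of 61 genes, 2 were higher and 2 lower (3.28% each way), below the shares of all tested genes (9.22% and 7.24%), and the median was -0.41. Alb, albumin, had 4521, 8607 and 10410.00 CPM in NL and 4712, 6019 and 4383 CPM at 44 h and was not called (log2 fold change -0.64, SE 0.35, adjusted p = 0.236), with 44 h values that overlapped the NL values. Ttr, which carries thyroid hormone, fell from 3974, 8598 and 10714 CPM to 3371, 3698 and 3672 CPM (adjusted p = 0.057), and this call was lost without any 1 of 5 of the 6 libraries, NL replicate 1 being the exception, with log2 fold changes of -1.14 to -0.79, and with the other NL libraries in place of mix 7 (log2 fold change -0.96). The apolipoprotein Apoa4 rose from 70.8, 103 and 70.4 CPM to 889.98, 512 and 306 CPM.

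Among 40 transcription factors of hepatocytes, 7 were lower (17.5%) and 3 higher (7.50%), with a median of -0.31. Of all tested genes 7.24% were lower and 9.22% higher. Hnf4a, the master regulator of hepatocyte identity, was not called, at 206, 229 and 230.3 CPM in NL and 169, 212 and 182 CPM at 44 h (log2 fold change -0.24, SE 0.18, adjusted p = 0.38). Cebpa, which restrains proliferation and supports metabolic genes, fell from 209, 145 and 192 CPM to 62.1, 34.7 and 52.4 CPM (log2 fold change -1.87, SE 0.24, adjusted p = 0.000517), while its relative Cebpb was higher. Nr1h4, the bile acid receptor, fell from 108, 91.4 and 121 CPM to 36.3, 53.7 and 54.9 CPM. Nr3c1, the glucocorticoid receptor, fell from 61.4, 51.04 and 48.3 CPM to 26.9, 18.5 and 26.2 CPM, and Ppara, the fatty acid receptor, from 49.1, 46.6 and 107 CPM to 36.7, 24.9 and 26.8 CPM. Without 44 h replicate 1 the log2 fold change of Nr1h4 was -0.97, and without NL replicate 3 that of Ppara was -0.68, both under the 2-fold minimum.

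Of 36 bile acid genes, 7 were lower (19.4%, against 7.24% of all tested genes) and 2 higher (5.56%, against 9.22%), with a median of -0.62. Cyp8b1, which directs synthesis towards cholic acid, fell from 1185, 2593 and 4459 CPM to 342, 228 and 494 CPM (log2 fold change -2.95, SE 0.48, adjusted p = 0.00215). Cyp7a1, the rate-limiting enzyme, had 58.1, 62.5 and 237 CPM in NL and 82.3, 7.89 and 71.8 CPM at 44 h and was not called (adjusted p = 0.295), with replicate 2 far below the other 2 libraries. The importer Slc10a1 (NTCP) fell from 719, 937 and 851 CPM to 260.1, 272 and 456 CPM, whereas Slc10a2, the importer best known from the ileum and bile duct, rose from 7.48, 9.25 and 7.82 CPM to 39.7, 26.4 and 23.2 CPM.

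Several genes of fat synthesis and storage were lower at 44 h. The desaturase Scd1 fell from 2153, 4373 and 3757 CPM to 825, 686 and 567 CPM (log2 fold change -2.31, SE 0.33, adjusted p = 0.00104), and Thrsp, a lipogenic regulator, fell from 1412, 1027 and 444 CPM to 183, 172 and 207 CPM. Gpam, the first enzyme of triglyceride synthesis, fell from 12.7, 4.81 and 12.8 CPM to 2.62, 3.95 and 0.828 CPM, and Angptl8, a hormone of the fed state, from 78.3, 17.8 and 29.9 CPM to 8.23, 1.18 and 6.62 CPM. These genes respond to feeding and insulin as background, and the feeding state at collection was not given in the sources used here. As lists, fatty acid and triglyceride synthesis had 9 lower and 3 higher of 41, glucose and glycogen metabolism 6 lower (14.0%) and 4 higher (9.30%) of 43, and cholesterol synthesis and uptake 4 lower and 0 higher of 30 by edgeR and DESeq2, with 11 lower and 0 higher at an unadjusted p under 0.05. Without NL replicate 1 Gpam was not called (log2 fold change -1.78).

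Fatty acid oxidation had 8 higher (16.7%) and 5 lower (10.4%) of 48, against 9.22% and 7.24% of all tested genes. Of the 8 higher members, 6 were omega-hydroxylases or acyl-CoA thioesterases. Cyp4a14 rose from 190.3, 101 and 205 CPM to 2436, 2043 and 1929 CPM (log2 fold change 3.69, SE 0.33, adjusted p = 5.66e-05), and Cyp4a10 from 399, 332 and 1104 CPM to 2799, 3077 and 2869 CPM. Acot3 rose from 23.9, 16.6 and 60.4 CPM to 217, 183 and 196 CPM. The summed level of the 8 genes was 5339 to 5793 CPM at 44 h, 554 to 1508 CPM in NL and 593 to 998 CPM at 52 h. These genes were chosen as higher at 44 h, so that order follows in part from the choice. Over all 48 tested genes of the list the sums overlapped, at 10713 to 17189 CPM in NL and 13170 to 14905 CPM at 44 h. These hydroxylases are textbook targets of Ppara, which itself was lower. Cyp4a12a and Cyp4a12b, of the same gene family, were lower and are described with the sex-biased genes.

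Drug metabolism had 27 lower (26.5%, against 7.24% of all tested genes) and 4 higher (3.92%, against 9.22%) of 102, with a median of -0.58. Cyp2f2, a periportal cytochrome, fell from 3402, 7046 and 7318 CPM to 1861, 1945 and 1753 CPM. The 4 higher were Cyp2b10, Por, Cyp2c38 and Gsta1, of which Gsta1 lost the call without any 1 of the 6 libraries. Por, which passes electrons to all microsomal cytochromes, rose from 106, 124 and 209 CPM to 402, 399.7 and 388 CPM, and Cyp2b10 from 9.48, 6.29 and 8.53 CPM to 34.4, 18.5 and 31.5 CPM. Members of the Ugt1a and Mup families share sequence with close copies, and how reads were divided among them was not tested.

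Of 69 genes of the urea cycle and amino acid breakdown, 14 were lower (20.3%, against 7.24% of all tested genes) and 0 higher by edgeR and DESeq2, with a median of -0.61. At an unadjusted p under 0.05, 33 lay lower and 1 higher. Otc, of the urea cycle, fell from 1707, 2626 and 2741 CPM to 872, 934 and 916 CPM. Tdo2, which opens the ring of tryptophan, fell from 1158, 1704 and 2292 CPM to 775, 238 and 569 CPM, and Ido2, of the same pathway, from 90.05, 88.8 and 69.7 CPM to 22.5, 18.2 and 29.8 CPM. Csad, which makes taurine, fell from 111, 199 and 203 CPM to 35.2, 4.34 and 21.3 CPM (log2 fold change -3.06, SE 0.50, adjusted p = 0.00231). Replicate 2 was the lowest of its group in Tdo2, Ido2 and Csad but not in Otc.

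Male-biased genes had the lowest median of the 33 lists. These are genes that pulsed growth hormone keeps high in male liver, and 27 of 33 were lower and 0 higher by edgeR (26 and 0 by DESeq2), with a median of -1.86. At an unadjusted p under 0.05, 30 lay lower and 0 higher. The list includes most of the 16 Mup genes tested, which encode the major urinary proteins and are near-identical copies. All 16 were called lower, with log2 fold changes of -2.14 to -1.45, and their sum was 56509, 105748 and 177910 CPM in NL and 17789.6, 41540.2 and 31420.3 CPM at 44 h, with 74630.4 to 130735 CPM in the other NL libraries. NL of mix 7 thus spread widely in these genes, and every 44 h sum lay below every NL sum. Hsd3b5, a steroid enzyme of male liver, fell from 122, 131 and 146 CPM to 8.23, 21.3 and 19.04 CPM (log2 fold change -3.03, SE 0.29, adjusted p = 8.77e-05). Cyp4a12a fell from 1245, 2674 and 3388 CPM to 204, 359 and 359 CPM, and the other NL libraries reached down to 311 CPM, within the 44 h range.

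Of 18 female-biased genes, 6 were higher (33.3%, against 9.22% of all tested genes) and 1 lower (5.56%, against 7.24%), with a median of 0.60. The higher ones include Acot3 and Abcd2, which are fatty acid oxidation genes as well, and Gas6, a secreted ligand, which rose from 4.99, 2.59 and 1.42 CPM to 8.98, 8.68 and 8.28 CPM and was not called without NL replicate 2 (adjusted p = 0.116). The lower gene was Lifr, a cytokine receptor, which fell from 38.9, 22.9 and 34.8 CPM to 15.7, 12.6 and 16.01 CPM and was not called without NL replicate 1 (log2 fold change -0.93). Of the Y-linked genes, Ddx3y was 284, 309 and 267 CPM in NL and 142, 115 and 153 CPM at 44 h (log2 fold change -1.07, SE 0.19, adjusted p = 0.00314). The other NL libraries spanned 63.6 to 262.9 CPM of Ddx3y, which holds all 44 h values. Kdm5d was lower as well (log2 fold change -1.95, SE 0.40, adjusted p = 0.00722). Eif2s3y (log2 fold change 0.30, SE 0.20, adjusted p = 0.335) was not called, nor was Uty (log2 fold change 0.68, SE 0.22, adjusted p = 0.0548), which differed less than 2-fold.

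Of 20 clock genes tested, 9 were lower and 4 higher at 44 h, with a median of -0.64. The core loop of the clock turns on genes with E-boxes once a day, and the products of Nr1d1 and Nr1d2 in turn repress the activator Arntl. Nr1d1 (REV-ERB alpha) fell from 192, 313 and 457 CPM to 9.36, 4.74 and 11.3 CPM (log2 fold change -5.20, SE 0.39, adjusted p = 1.15e-05), and Nr1d2 from 242, 291 and 416 CPM to 50.5, 51.3 and 67.3 CPM. Dbp, a PAR bZIP activator, fell from 73.8, 48.5 and 129 CPM to 2.62, 2.76 and 3.04 CPM. Bhlhe41 (DEC2), a repressor at E-boxes, had 49.4, 25.5 and 70.4 CPM in NL and 0.374, 0.395 and 0 CPM at 44 h, with 2 counts over the 3 libraries. Per3 fell from 19.96, 15.9 and 50.5 CPM to 4.49, 2.76 and 6.8999 CPM, Ciart from 20.2, 12.6 and 31.98 CPM to 4.87, 3.55 and 5.796 CPM, and Tef from 183, 153 and 329.8 CPM to 69.99, 43.4 and 82.8 CPM. No 44 h value of these 7 genes reached any NL value.

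Per1 and Cry1, repressors of the core loop, were among the 4 clock genes that were higher. Per1 rose from 20.5, 17.01 and 22.7 CPM to 65.9, 46.6 and 56.6 CPM, Cry1 from 8.73, 6.66 and 3.55 CPM to 27.3, 15.4 and 22.6 CPM and Nfil3, a repressor at D-boxes, from 10.98, 13.7 and 6.397 CPM to 18.3, 40.6 and 25.7 CPM. Usp2 was called with overlapping groups, at 34.9, 31.1 and 88.1 CPM in NL and 75.97, 84.4 and 147 CPM at 44 h, and lost the call without NL replicate 1, NL replicate 2 or 44 h replicate 3 (log2 fold changes 0.82, 0.78 and 0.69). Arntl had at most 2 counts in any of the 6 libraries and gave no reading, and Per2 was not called (adjusted p = 0.644). Of the 9 promoters of clock genes called lower, 3 (33.3%) held the E-box letters CACGTG, against 10.5% of all promoters, and those stretches are printed above for Bhlhe41, Ciart and Tef. The D-box letters TTATGNAA were in 1 of the 9 (11.1%), that of Per3, against 2.24%. The hour of collection of the NL mice was not given in the sources used here, so a difference in the hour of the day and the operation cannot be told apart in these genes. At 52 h Nr1d1 had a median of 119 CPM and Per1 one of 1.99 CPM, both below every NL library of mix 7. The paper places all surgeries in the morning, so 44 h and 52 h fell at different hours of the day.

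**Figure D5:**
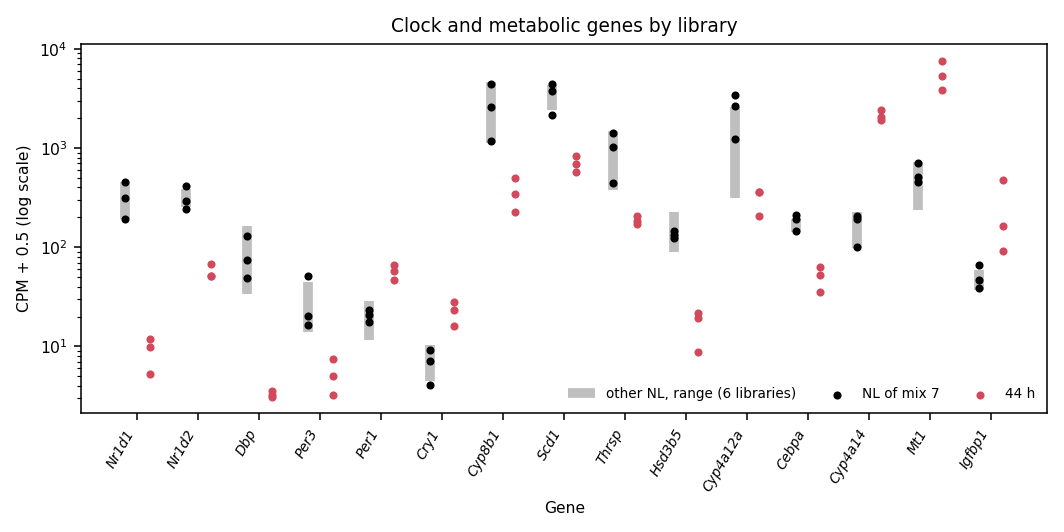
CPM + 0.5 (log axis) of 15 clock and metabolic genes, with black points for NL of mix 7, red points for the 44 h libraries and grey bars for the range of the 6 other NL libraries. The 44 h points do not overlap the black points for any gene shown and overlap a grey bar only for Cyp4a12a. They lie below NL for Nr1d1 to Per3 and Cyp8b1 to Cebpa, and above for Per1, Cry1, Cyp4a14, Mt1 and Igfbp1.

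Further genes with counts in NL 4 were called in both directions. Rgs16, which shuts off G protein signals, had 7.23, 19.97 and 25.6 CPM in NL and 0, 0.395 and 0 CPM at 44 h, and Arrdc3, an arrestin relative, fell from 51.6, 109.8 and 211 CPM to 6.74, 5.13 and 10.2 CPM. Clec2h fell from 33.4, 49.2 and 114 CPM to 5.61, 1.58 and 3.86 CPM and Car3, a carbonic anhydrase of fat and liver, from 1355, 1937 and 2363 CPM to 329, 229.7 and 322 CPM. Noct, a phosphatase with a daily rhythm, rose from 335, 213 and 132 CPM to 1362, 438 and 845 CPM, and the kinase Sgk1 from 85.1, 80.999 and 127 CPM to 817, 340.2 and 223 CPM.

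Both lists of zonation genes had negative medians but few calls. Of 28 pericentral genes, 3 were lower (10.7%) and 1 higher with a median of -0.45, and of 32 periportal genes 4 were lower (12.5%) and 1 higher with a median of -0.58. Of all tested genes 7.24% were lower. At an unadjusted p under 0.05, 6 pericentral genes lay lower and 1 higher, and 14 periportal genes lower and 2 higher. Glul, glutamine synthetase of the cells around the central vein, was not called, at 81.3, 107 and 335 CPM in NL and 44.2, 96.3 and 118 CPM at 44 h (log2 fold change -0.99, SE 0.49, adjusted p = 0.189). Cyp2e1 fell from 532, 654 and 1414 CPM to 307, 413 and 519.7 CPM (adjusted p = 0.0655), a call that was lost without NL replicate 3 (log2 fold change -0.50), 44 h replicate 1 (-0.89) or 44 h replicate 2 (-1.07), and that with a replicate block (-0.97) or with the other NL libraries (-0.89) fell short of 2-fold. The periportal Pigr, which carries antibodies into bile, fell from 439, 611 and 554 CPM to 185, 152 and 206 CPM.

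Markers of hepatocytes were present in every library. Of 16 hepatocyte markers, 2 were lower (Ttr and Cyp2e1), and their summed level was 28297 to 62656 CPM in NL and 28714 to 34810 CPM at 44 h. Markers of macrophages had 3 higher of 14 (21.4%, against 9.22% of all tested genes), with sums of 321 to 426 CPM in NL and 375 to 622 CPM at 44 h. C1qa, a complement protein of macrophages, rose from 11.97, 9.99 and 11.4 CPM to 29.2, 37.9 and 22.9 CPM and the scavenger receptor Marco from 2.99, 0.7397 and 1.42 CPM to 10.1, 29.2 and 16.8 CPM. Markers of sinusoidal endothelium had 2 higher of 19 (10.5%), close to the share of all tested genes (9.22%). Their sums were 418 to 510 CPM in NL and 506 to 692 CPM at 44 h, and Lyve1 rose from 8.48, 7.77 and 4.26 CPM to 61.4, 64.7 and 39.7 CPM. Of 16 stellate cell markers, 2 were higher (12.5%, against 9.22% of all tested genes), Acta2 and Des, of which Acta2 was not called with the other NL libraries but mix 1 (adjusted p = 0.187). Without the genes at 0 in NL 4, of which Des is one, the sums were 149 to 173 CPM in NL and 160 to 205 CPM at 44 h. In these bulk libraries a change in the number of cells of a type and a change in RNA per cell cannot be told apart, and the part of these cells in the differences above was not tested.

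For blood cells few markers could be read. Of 10 neutrophil markers none was in the table, and of 16 lymphocyte markers Ighm alone was tested, at 5.74, 7.397 and 4.26 CPM in NL and 0.749, 0.789 and 0 CPM at 44 h, while NL 4 held 0.553 CPM. With the other NL libraries but mix 1 it was not called (adjusted p = 0.19). Of 4 red cell markers tested, Alas2 fell from 66.9, 82.5 and 85.3 CPM to 30.7, 28.02 and 38.9 CPM. Cholangiocyte markers had 0 calls of 4 by edgeR and DESeq2 and 0 at an unadjusted p under 0.05.

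44 h replicate 3 and NL 4, both of mix 26, were the single pair of the 2 groups inside a mix, and NL 4 followed the mean of the other NL libraries, as given above. A fit with the mix as a covariate added the mean of NL 4 and NL 5 as a library of mix 26. The difference within a mix then rests on 44 h replicate 3 against that mean alone. This fit called 166 genes higher (1.51%) and 40 lower (0.365%). Of these, 13 DNA replication, 20 mitosis and 5 acute-phase genes were higher and 4 clock and 3 male-biased genes lower. With the other NL libraries in place of mix 7, 1045 genes (9.52%) were higher and 785 (7.15%) lower.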

How the data were processed

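Hepatocyte RNA was read by 3′UTR-seq. The authors mapped reads to GRCm38 (the submitters' processing notes name GRCh38 and bcl2fastq 2.20), turned tags into transcript numbers and adjusted these between datasets with ComBat-Seq. What they deposited are expected counts, not scaled for depth, of which 30966 values in 448 genes were not whole and were rounded here. The 6 libraries held 1672930 to 3494479 counts without the dropped genes, so that 1 count is worth 0.25 to 0.71 CPM. TMM factors, a quasi-likelihood fit over the 6 libraries and Benjamini-Hochberg adjustment were run in edgeR 4.0.16 (R 4.3.3). On simulated data of this comparison with 10926 genes, 33% of 100 genes changed 2-fold and 94% of 100 changed 4-fold were called, beside 8 unchanged genes. Alternatives were DESeq2 1.42.0, other factors, filters, NL libraries and models, and each library left out.

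Named genes were the called genes of largest fold change whose 44 h libraries lay on 1 side of every NL library (10 each way with a mean of at least 10 counts, and 20 each way with counts in NL 4, added after seeing the data), the 2 most abundant and 2 most changed called members of each list, and a short list of cell cycle and liver genes by name, 147 in all, and 70 more were chosen after their values were seen. The members and the lists were chosen with earlier results of these data known. Gene positions are from GENCODE vM21.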

Additional observations from a re-analysis of the deposited data

Results flagged for a closer look

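Among the NL libraries of YM (8 samples, NL 4 and 5 counted as 1), single values stood apart from the rest in 26 of the 208 genes examined, by a gap test. Chance passes it in about 1 in 20 groups of normally spread values. That rate need not hold for genes near 0 counts, so the 26 cannot be set against it. In 13 of the genes the value that stood apart was that of NL 4 and 5: Igf2 at 6.66 CPM (next 0.852), H19 at 77.6 (next 3.41), Acta2 at 3.85, Dlk1 at 1.94, Slpi at 2.16, Thbs1 at 1.51, Kif22 at 1.23, S100a4 at 0.553, Lockd at 0.503, Gins2 at 0.452, Kif20b and Kifc5b at 0.277 each and Phlda3 at 0.226. All 44 h libraries had counts of these genes except replicate 1 in Dlk1, and NL of mix 7 held at most 1.11 CPM of any.

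NL 3 of mix 7 was highest in Ppara (106.6 CPM), Stard4 (212.5), Ugt1a6b (4.27), Samd10 (1.42) and Ttk (0.711), and NL 2 was lowest in Gpam (4.81 CPM). The library of mix 10 was highest in Hsd3b5 (224.2 CPM), Slc10a2 (13.6) and Traip (0.618). In mix 1, Selenon (1.70 CPM) and Ube2c (2.01) were high and Pou3f2 (12.7) and Pygl (282.9) low in a single library. Outside the genes analysed, the 61 dropped genes held 92.3, 92.2 and 93.7% of all counts in the 44 h libraries, above the 0.108% at most in NL.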

How the results depend on the processing

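Of the 203 called genes named here, 137 stayed called under all 21 settings other than the mix covariate, 66 lost the call under at least 1 of them and 0 reversed it. DESeq2 gave 906 higher and 628 lower, and leaving out 1 library gave 863 to 1061 higher and 659 to 906 lower. The replicate numbers are shared between the groups by number only, since same-numbered libraries did not deviate together (correlations 0.0064, 0.0503 and 0.01), and a replicate block gave 1019 higher and 776 lower. With the mix as a covariate and the mean of NL 4 and NL 5 added, 166 genes were higher and 40 lower, and 56 of the 203 stayed called. The log2 fold changes of H19 (-0.14), Eci3 (-0.24), Acta2 (-0.0316) and Ugt1a9 (3.71) reversed in that fit. There the mean of NL 4 and NL 5 is the only NL value within a mix of 44 h, and the cause of the reversals was not tested. Between other NL and NL of mix 7, DESeq2 called 1 gene and the test without mix 1 called 3. Without mix 1, a choice made after seeing the data, the other NL libraries gave 891 higher and 561 lower. With the other NL libraries in place of mix 7 the list medians moved to 0.48 for DNA repair, 0.081 for the proteasome, -0.0639 for the respiratory chain, 0.0396 for growth factors, 2.02 for fetal and biliary genes, -0.34 for plasma proteins, -0.14 for fatty acid synthesis, 0.28 for fatty acid oxidation, -0.082 for glucose metabolism, 0.39 for female-biased genes, 0.0766 for iron and heme and -0.47 for hepatocyte markers, and the cause was not tested. Of 119 group levels, 115 moved by less than the spread of their group with TMM over all YM libraries, and the other 4 moved, Ccnb1 at 4 d to 4.47 CPM, Cdk1 after sham at 4 d to 4.98, and Hnf4a at 4 d to 283.854 and after sham at 52 h to 316.218. Depth limits genes with 0 to 3 counts in NL, and a bound or a counting interval is given for some of them only. Fold changes of the others rest on few NL counts as well.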

Other observations

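Among genes outside the lists, Thbs1, which encodes thrombospondin 1, had 0 counts in NL of mix 7 and 11.6, 9.87 and 2.21 CPM at 44 h, at least 19.6-fold higher when the NL group is set at a floor of 3 counts over its 3 libraries (edgeR adjusted p = 0.00627). Slpi, a secreted protease inhibitor, had 0, 0.370 and 0 CPM in NL and 14.97, 14.2 and 7.45 CPM at 44 h (edgeR log2 fold change 6.17, adjusted p = 0.000291). All 3 libraries at 44 h lay above NL of mix 7 in both genes. NL 4 held 1.66 CPM of Thbs1 and 3.87 CPM of Slpi, and both genes had a median of 0 CPM after sham surgery at 52 h.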
